A study of Mus musculus with 10 samples.

Results

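Cyclic AMP (cAMP) signalling was examined through 10 genes: the phosphodiesterase genes Pde2a, Pde3b, Pde4b, Pde4d, Pde7a and Pde8a, the adenylyl cyclase gene Adcy7, and Prkar1a, Prkaca and Prkacb, which encode subunits of cAMP-dependent protein kinase (PKA). Pde2a was picked because it is lower in the floxed arrays, so its values are given as a description with no test, and the other 9 genes were chosen by function. Of the 10 genes, 9 were measured by a probe set with a single gene symbol, out of 19937 genes measured in all. Prkaca was not analysed here, because its probe set also carries the symbol of another gene.

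RNA came from B cells of the spleen, sorted by flow cytometry as B220+CD22+ cells from mice of the strain CBAxC57BL/6J, and was hybridised to 10 Affymetrix Mouse Gene 1.0 ST arrays. There were 3 wild-type arrays, 3 arrays of the genotype Sca1-Bcl6(floxed) (called floxed here) and 4 of the genotype Sca1-Bcl6(delta) (called delta here). Floxed mice carry a transgene with mouse Bcl6, an internal ribosome entry site and eGFP between loxP sites in a Ly6 (Sca1) expression vector, and delta mice carry the same transgene after breeding to mb1-Cre, which acts in B-lineage cells. The labels mention 2 transgenic lines without saying which line an array came from, and they give no age, sex or batch. Nor do they tie each array to an animal of its own, so p-values measure only the spread between these samples.

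Cyclic AMP is made by adenylyl cyclases downstream of receptors that couple to the G protein Gs, and it activates PKA by releasing the catalytic subunits from the regulatory ones. Phosphodiesterases end the signal by cleaving cAMP, cGMP or both. In lymphocytes, a rise in cAMP dampens activation through the antigen receptor, and PKA phosphorylates the transcription factor CREB, which binds cAMP response elements in target promoters.

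Of the 9 genes, Pde2a alone had levels that did not overlap between any of the 3 groups. It was highest in wild-type, lowest in floxed and intermediate in delta arrays, and its floxed fall is what chose it. Pde8a ran the other way, with lower levels in every wild-type array than in any floxed or delta array. The Pde8a difference did not pass the threshold. Of all genes, 16.7% did not overlap in floxed against wild-type, 9.25% in delta against wild-type and 6.96% in delta against floxed. The other 7 genes had floxed differences between -0.29 and 0.26 on the log2 scale, and none passed. Among 100 other measured genes of the pathway, 2 passed, against 0.552% of all genes: Prkar2a and Ppargc1a rose in floxed arrays. Neither call held with the sex pattern of the arrays (adjusted p = 0.302 and 0.683 in limma) or the T cell marker mean (adjusted p = 0.221 and 0.186) as a covariate. In the fit with the sex pattern, sex rests on the array delta 1 alone. There the Prkar2a difference was 0.98 (SE 0.20), against 0.70 (SE 0.13) in the main fit. That of Ppargc1a was 0.30 (SE 0.13), against 0.51 (SE 0.08). Values below are log2 RMA intensities unless they are called differences, and levels of different genes are not compared, since each probe set has its own response.

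Array medians of the RMA intensity ranged from 139 to 145, and correlations across genes lay between 0.993 and 0.997 within groups and between 0.989 and 0.996 between groups. B cell markers were high throughout: the mean of 9 of 10 listed markers lay at 12.96 to 13.02 in wild-type, 12.94 to 13.02 in floxed and 12.88 to 12.93 in delta arrays, and the lowest single marker value was 11.79 for Blnk. The sex pattern differed between the groups, and NK cell, myeloid and erythroid markers had higher means in every floxed than in any wild-type array. From Xist and Y-linked genes, all 3 wild-type arrays had a female pattern, all 3 floxed arrays a male pattern, and among the delta arrays delta 1 was male and the other 3 female, so sex and genotype cannot be told apart in floxed against wild-type. The mean of 15 of 18 T cell markers lay at 6.93 to 7.20 in wild-type, 7.09 to 7.70 in floxed and 6.96 to 7.28 in delta arrays. That of 10 NK cell markers lay at 5.84 to 5.97, 6.08 to 6.54 and 5.79 to 6.20, that of 13 myeloid markers at 6.63 to 6.65, 6.75 to 7.13 and 6.70 to 7.06, and that of 9 of 12 erythroid markers at 7.32 to 7.67, 7.81 to 8.16 and 7.15 to 7.72, in the same order. Platelet and endothelial markers (7 of 8 measured) lay at 7.27 to 7.31, 7.19 to 7.32 and 7.20 to 7.28. No marker of the 5 other cell types passed the threshold in any comparison, and 1 B cell marker, Cd79a, was lower in delta than in wild-type arrays. In bulk RNA, fewer cells of a type and less RNA per cell cannot be told apart.

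Pde2a encodes a phosphodiesterase that cleaves both cAMP and cGMP and is stimulated by cGMP. Its probe set (10555510) gave 9.48, 9.05 and 9.09 in the wild-type arrays, 8.14, 8.25 and 8.07 in the floxed arrays, and 8.74, 8.94, 8.84 and 8.45 in the delta arrays. Every wild-type array lay above every delta array, and every delta array above every floxed array, so no pair of groups overlapped. The linear intensity averaged 595 ± 103 (SD, n = 3) in the wild-type group, 285 ± 17.6 (SD, n = 3) in the floxed group and 432 ± 61.2 (SD, n = 4) in the delta group. The difference between floxed and wild-type, which chose the gene, came to a log2 value of -1.05 (SE 0.14, 95% CI -1.35 to -0.76), or 2.07-fold lower in floxed arrays. Delta arrays were lower than wild-type arrays by a difference of -0.46 (SE 0.13, 95% CI -0.74 to -0.18) and higher than floxed arrays by 0.59 (SE 0.13, 95% CI 0.31 to 0.87). These comparisons share arrays with the one that chose Pde2a, so no test of Pde2a is given.

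The delta arrays hold both sex patterns. The male delta 1 array, at 8.74, lay within the range of the 3 female delta arrays, 8.45 to 8.94, and above the floxed arrays, all male, at 8.07 to 8.25. With the sex pattern as a covariate, the floxed difference was -1.05 (SE 0.25), a fit in which sex rests on delta 1 alone. With the T cell marker mean as a covariate it was -0.83 (SE 0.14), and delta against floxed changed from 0.59 to 0.35. Floxed 2 had a T cell mean of 7.09, within the wild-type range, and Pde2a at 8.25. Its NK cell, myeloid and erythroid means, 6.08, 6.83 and 7.97, lay above the highest wild-type means, 5.97, 6.65 and 7.67. None of these other marker means was used as a covariate. With floxed 2 as the sole floxed array, a setting chosen after seeing the data, the difference was -0.96 (SE 0.21, which assumes that the lone array varies like the other groups). These values include those that chose the gene, and the part of sex or of other cells in the difference was not tested.

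Pde8a encodes a phosphodiesterase of high affinity for cAMP. Its probe set (10554521) gave 7.58, 8.04 and 8.26 in wild-type, 8.82, 8.83 and 8.91 in floxed, and 8.80, 8.31, 8.38 and 9.09 in delta arrays. All 3 wild-type arrays lay below all 7 others, and the floxed and delta arrays overlapped. The linear intensities averaged 253 ± 58.5 (SD, n = 3), 463 ± 15.9 (SD, n = 3) and 410 ± 106 (SD, n = 4) in the same order. Floxed against wild-type gave a difference of 0.90 (SE 0.20, 95% CI 0.45 to 1.34, adjusted p = 0.0809 in limma) and delta against wild-type 0.69 (SE 0.19, 95% CI 0.27 to 1.10, adjusted p = 0.318), neither past the threshold of 0.05. Delta against floxed gave -0.21 (95% CI -0.63 to 0.20, adjusted p = 0.881). The floxed comparison passed when only its own 2 groups were fitted (adjusted p = 0.031 in limma) and without delta 4 (adjusted p = 0.0293). It was 0.69 (adjusted p = 0.741) with the sex pattern as a covariate and 0.65 (adjusted p = 0.359) with the T cell mean as one, and over all alternatives the adjusted p in limma ranged from 0.0293 to 0.741. The male delta 1 array, at 8.80, lay within the female delta range of 8.31 to 9.09.

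**Figure D1:**
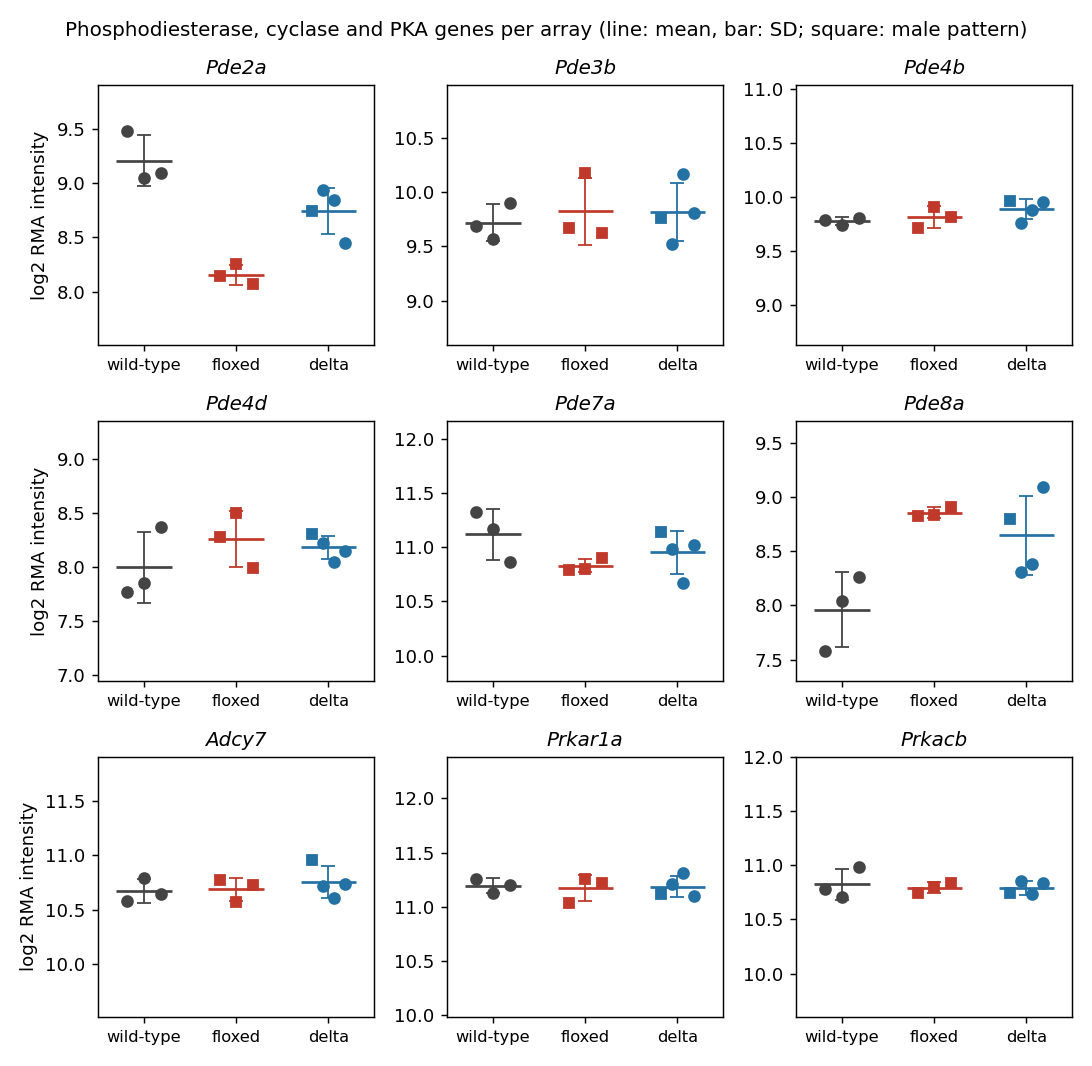
Log2 RMA intensity (vertical axis) of the 9 measured genes in each array of the wild-type, floxed and delta groups; each panel spans the same log2 range, the line is the group mean, the bar 1 SD, and squares mark arrays of male pattern. Pde2a falls into 3 separate bands (8.07 to 8.25 in floxed, 8.45 to 8.94 in delta and 9.05 to 9.48 in wild-type), Pde8a has its 3 wild-type arrays lowest, and the other 7 panels overlap between groups.

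Pde2a and Pde8a varied in opposite directions from array to array. The difference Pde2a minus Pde8a, a relative measure across probe sets, was 1.90, 1.01 and 0.83 in wild-type, -0.68, -0.59 and -0.84 in floxed, and -0.06, 0.63, 0.46 and -0.64 in delta arrays. Of the 4 delta arrays only delta 4 lay in the floxed range, and none reached the wild-type range. Within groups the opposition was also present: in wild-type 1 Pde2a lay 0.27 above its group mean and Pde8a at -0.38 from its own, whereas in delta 4 the deviations were -0.30 and 0.44. After subtraction of group means, Pearson's r was -0.92 and Spearman's rho -0.88 over the 10 arrays, the lowest r of 36 pairs of these genes, and r was -0.82 without wild-type 1 and delta 4. This is a description without a p, since the pair was chosen for its value and the 2 measures share the array and its normalization. The next lowest was Adcy7 with Prkar1a (r -0.79, rho -0.79, and -0.80 without wild-type 2 and delta 1), and the highest was Pde3b with Pde4b (r 0.60, rho 0.67). Delta 4 also had the highest T cell mean of the delta arrays, 7.28, and wild-type 1 the lowest of the wild-type arrays, 6.93. The NK cell, myeloid and erythroid means were likewise highest in delta 4 (6.20, 7.06 and 7.72) and lowest in wild-type 1 (5.84, 6.63 and 7.32). The platelet and endothelial mean was the highest of its group in both arrays, 7.28 in delta 4 and 7.31 in wild-type 1. The part of these cells in the opposition was not tested.

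**Figure D2:**
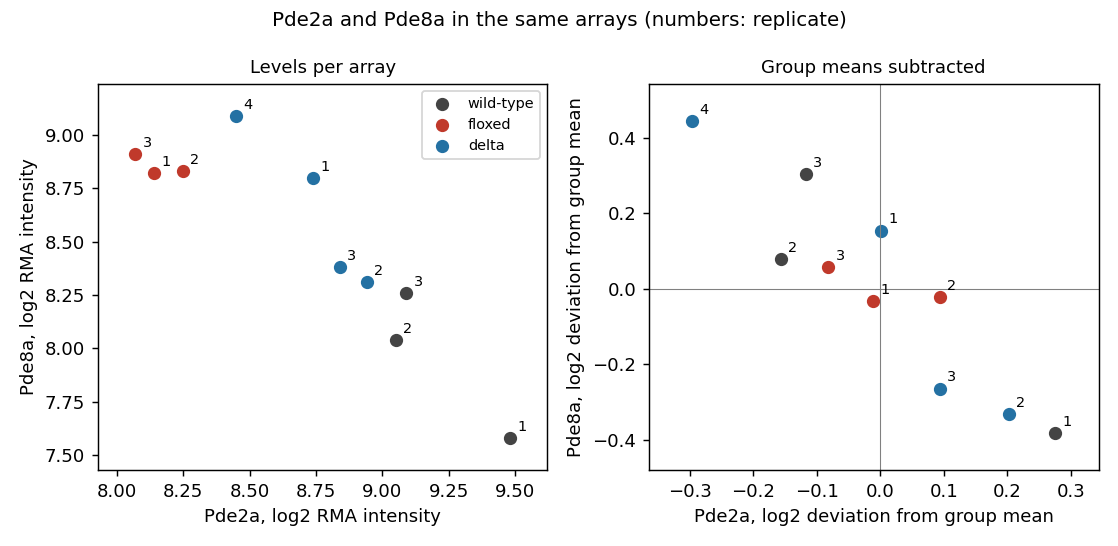
Pde2a (horizontal axis) against Pde8a (vertical axis) in the 10 arrays, as log2 RMA intensities (left) and as log2 deviations from the group mean (right), with replicate numbers beside the points. Floxed arrays lie at low Pde2a and high Pde8a, wild-type arrays at the opposite end, and delta arrays between them on the Pde2a axis, with delta 4 nearest the floxed arrays.

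The promoters of 3 genes are shown because Pde2a and Pde8a had the largest differences of the 9 genes from wild-type and Prkar1a holds the only full cAMP response element among these genes. The sequences are RefSeq's, build GRCm38.p6, and cover 250 bases before the annotated start, 5′ to 3′ on the gene's strand. Capitals mark the full element TGACGTCA or its shorter form TGACG, searched on both strands, and the shorter form also matches inside the full element. Pde2a has 5 annotated starts, of which the most upstream (chr7:101421441-101421690, plus strand) is printed. Pde8a (chr7:81213015-81213264, plus strand) has 1, and Prkar1a has 6, of which the one with the full element is printed (chr11:109650699-109650948, plus strand). The last 2 promoters were chosen after the matches were seen.
Pde2a: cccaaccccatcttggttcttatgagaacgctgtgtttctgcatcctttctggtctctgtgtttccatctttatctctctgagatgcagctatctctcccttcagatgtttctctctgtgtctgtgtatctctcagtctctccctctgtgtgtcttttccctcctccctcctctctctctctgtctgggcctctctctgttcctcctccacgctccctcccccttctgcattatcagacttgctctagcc
Pde8a: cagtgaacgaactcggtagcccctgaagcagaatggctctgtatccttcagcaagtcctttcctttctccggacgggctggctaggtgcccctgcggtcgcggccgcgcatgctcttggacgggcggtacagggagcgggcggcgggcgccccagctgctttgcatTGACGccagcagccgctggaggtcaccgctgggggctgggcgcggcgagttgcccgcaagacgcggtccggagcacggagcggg
Prkar1a: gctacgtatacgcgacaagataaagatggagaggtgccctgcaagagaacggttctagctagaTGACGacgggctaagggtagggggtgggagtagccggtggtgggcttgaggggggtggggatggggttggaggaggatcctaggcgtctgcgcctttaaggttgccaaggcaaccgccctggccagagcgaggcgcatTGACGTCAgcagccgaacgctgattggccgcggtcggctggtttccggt

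Of the 10 genes, 8 had a promoter in the RefSeq table and Pde3b and Pde7a did not. They held 25 promoters, of which 8 contained TGACG and 1 contained TGACGTCA. Prkar1a supplied 3 of the 8, and overlapping Prkar1a promoters share a TGACG site that is counted in each. Among all 32851 promoters of 250 bases, the shares were 17.8% and 1.55%. None of the 5 Pde2a promoters contained either. The Pde8a promoter contained TGACG with its first base 84 bases before the start, and the full element of Prkar1a began 49 bases before the start. The BCL6 core TTCCTNGAA, which is in 1.31% of all promoters, was in 0 of the 25. A match is a description of letters and not of binding, and the arrays do not tell which start is used.

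The remaining cAMP-cleaving enzymes had small differences. Pde7a, a cAMP-specific phosphodiesterase gene, gave 11.32, 11.17 and 10.86 in wild-type, 10.79, 10.80 and 10.90 in floxed and 11.14, 10.98, 10.67 and 11.02 in delta arrays (probe set 10497399). Wild-type 3 lay inside the floxed range, so the groups overlapped. The floxed difference was -0.29 (SE 0.13, adjusted p = 0.387 in limma), and delta against wild-type was -0.17 (adjusted p = 0.810). Pde3b encodes an enzyme that cleaves cAMP and is inhibited by cGMP, the opposite response to that of the Pde2a product. It gave 9.69, 9.57 and 9.90 in wild-type, 9.67, 10.18 and 9.62 in floxed and 9.76, 9.52, 10.17 and 9.81 in delta arrays (probe set 10556528). Floxed 2 and delta 3 stood highest, and all groups overlapped. Its floxed difference was 0.10 (95% CI -0.28 to 0.48, adjusted p = 0.852 in limma), which turned to -0.08 without floxed 2.

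Pde4b and Pde4d encode cAMP-specific enzymes of the family that rolipram inhibits. Pde4b (probe set 10506335) gave 9.79, 9.74 and 9.81 in wild-type, 9.71, 9.91 and 9.82 in floxed and 9.96, 9.76, 9.88 and 9.95 in delta arrays. Its floxed difference was 0.03 (95% CI -0.13 to 0.19, adjusted p = 0.904 in limma) and its delta difference 0.10 (95% CI -0.05 to 0.26, adjusted p = 0.785). All groups overlapped. Pde4d gave 7.77, 7.85 and 8.37 in wild-type, 8.28, 8.50 and 7.99 in floxed and 8.30, 8.22, 8.05 and 8.15 in delta arrays with its brightest probe set (10407097). Wild-type 3 was high among the wild-type arrays, and the groups overlapped. The floxed difference was 0.26 (SE 0.16, 95% CI -0.09 to 0.60, adjusted p = 0.531 in limma). The other Pde4d probe sets were dimmer, with 4.30 to 4.48 for 10407122 and 5.91 to 7.07 for 10407124, where wild-type 3 was again highest.

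The measured genes Adcy7, Prkar1a and Prkacb, which act in making and sensing cAMP, did not pass the threshold in any comparison. Adcy7, an adenylyl cyclase gene expressed in lymphocytes (probe set 10573747), gave 10.58, 10.79 and 10.64 in wild-type, 10.77, 10.57 and 10.73 in floxed and 10.96, 10.72, 10.61 and 10.74 in delta arrays. The floxed difference was 0.01 (95% CI -0.20 to 0.22, adjusted p = 0.972 in limma) and the delta difference 0.08 (95% CI -0.11 to 0.28, adjusted p = 0.897). Prkar1a, the gene of the type I alpha regulatory subunit (probe set 10382284), gave 11.26, 11.13 and 11.20 in wild-type, 11.04, 11.26 and 11.22 in floxed and 11.12, 11.21, 11.31 and 11.10 in delta arrays. Its floxed difference was -0.02 (95% CI -0.20 to 0.15, adjusted p = 0.936 in limma), and delta against wild-type was -0.01 (95% CI -0.17 to 0.15, adjusted p = 0.986). Prkacb, the gene of the beta catalytic subunit (probe set 10502732), gave 10.78, 10.71 and 10.98 in wild-type, 10.74, 10.80 and 10.84 in floxed and 10.74, 10.85, 10.73 and 10.84 in delta arrays. Its floxed difference was -0.03 (95% CI -0.20 to 0.14, adjusted p = 0.918 in limma) and the delta difference -0.03 (95% CI -0.19 to 0.13, adjusted p = 0.961). The intervals of Adcy7, Prkar1a and Prkacb against wild-type thus lay between -0.20 and 0.28.

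**Figure D3:**
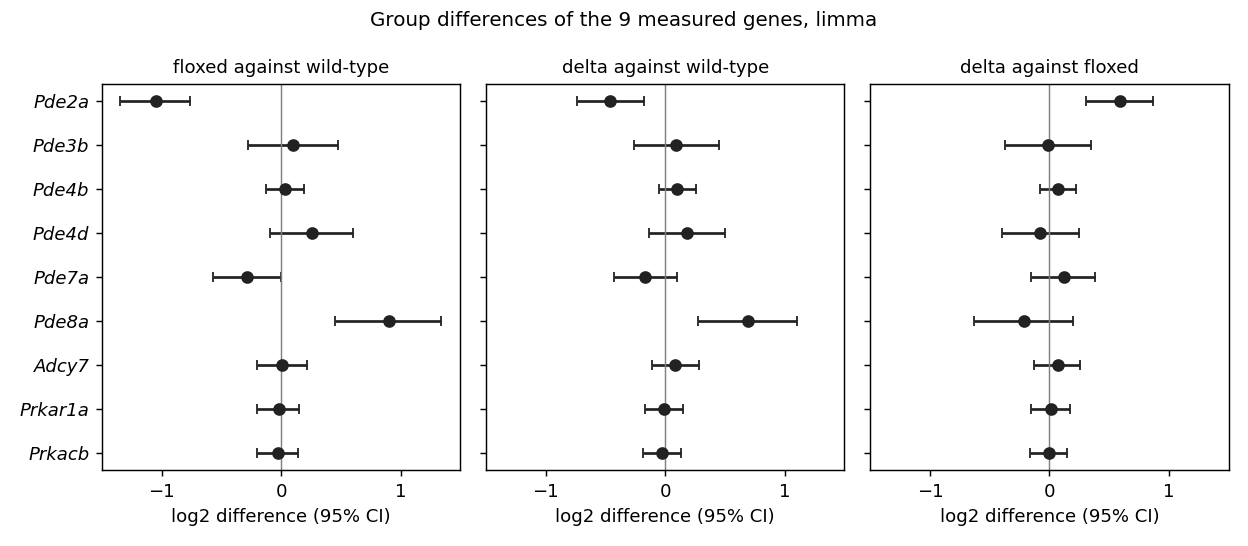
Log2 differences with 95% confidence intervals (horizontal axis) for the 9 measured genes, from limma over all 10 arrays, with 1 panel for each pair of groups. From left to right Pde2a lies at -1.05, -0.46 and 0.59, a description with no test, and Pde8a at 0.90, 0.69 and -0.21. The Pde8a intervals against wild-type lie above 0, though neither difference passed the threshold, and its interval in delta against floxed includes 0. Those of the remaining genes include 0 or, for Pde7a in floxed against wild-type, end beside it.

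Pde2a was picked from the floxed comparison and is left out of the counts. Of the 8 other measured genes, 0 passed the threshold of limma between floxed and wild-type arrays, beside 0.552% of all genes, and 2 had an unadjusted p under 0.05. In delta against wild-type 0 of 8 passed, beside 0.0752% of all genes, with 1 at an unadjusted p under 0.05. In delta against floxed 0 of 8 passed, beside 0.00502%, with 0 at an unadjusted p under 0.05. Over all 19937 genes, 2547, 1574 and 1279 had an unadjusted p under 0.05 in limma in these comparisons, in the same order. Groups did not overlap for 1 of the 8, Pde8a, in floxed against wild-type, beside 16.7% of all genes. The same gene was the 1 of 8 in delta against wild-type, beside 9.25%, and there was 0 of 8 in delta against floxed, beside 6.96%. The medians of the 8 differences were 0.02, 0.09 and 0.00, beside -0.02, -0.01 and 0.00 over all genes. Both comparisons against wild-type share the wild-type arrays.

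Other genes of the pathway were taken from 7 lists with 110 genes, 100 of them measured. In floxed against wild-type 2 rose and 0 fell, with 98 not past the threshold, beside 0.552% of all genes. In both delta comparisons 0 of 100 passed the threshold of limma, beside 0.0752% of all genes against wild-type and 0.00502% against floxed. In the order floxed and delta against wild-type, then delta against floxed, 14, 18 and 6 had an unadjusted p under 0.05. Over all 19937 genes, 2547, 1574 and 1279 did. In the same order, groups did not overlap for 18, 11 and 2 of the 100, beside 16.7%, 9.25% and 6.96% of all genes. The median difference was -0.02 in floxed against wild-type, as over all genes. Prkar2a encodes the type II alpha regulatory subunit of PKA. Its probe set (10589087) gave 7.43, 7.50 and 7.52 in wild-type, 8.05, 8.21 and 8.30 in floxed and 7.85, 7.88, 8.10 and 8.39 in delta arrays, so every wild-type array lay below every other array. The floxed difference was 0.70 (SE 0.13, adjusted p = 0.0395 in limma), and delta against wild-type was 0.57 (SE 0.12, adjusted p = 0.161). With the sex pattern or the T cell mean as a covariate the floxed difference was 0.98 (SE 0.20, adjusted p = 0.302 in limma) and 0.61 (SE 0.16, adjusted p = 0.221), no longer past the threshold. The call also ended without any 1 of the wild-type or floxed arrays and without delta 3, with differences of 0.64 to 0.77 and adjusted p in limma of up to 0.132. Male delta 1, at 7.85, lay below the 3 female delta arrays, at 7.88 to 8.39.

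Ppargc1a encodes the transcriptional coactivator PGC-1 alpha and is a known target of CREB in liver. Its brighter probe set (10529979) gave 7.52, 7.67 and 7.80 in wild-type, 8.19, 8.16 and 8.17 in floxed and 8.10, 7.84, 7.93 and 7.90 in delta arrays, and no pair of groups overlapped. The floxed difference was 0.51 (SE 0.08, adjusted p = 0.0282 in limma), delta against wild-type 0.28 (adjusted p = 0.344) and delta against floxed -0.23 (adjusted p = 0.721). Its male delta 1 array, at 8.10, lay above the 3 female delta arrays, at 7.84 to 7.93, and with the sex pattern as a covariate the floxed difference was 0.30 (adjusted p = 0.683 in limma). With the T cell marker mean as one it was 0.48 (adjusted p = 0.186), and with a replicate block it was 0.51 (adjusted p = 0.0505). The call also ended without wild-type 1, wild-type 2 or any 1 of the floxed arrays, with adjusted p in limma of up to 0.111. A second probe set (10529977) gave 5.83 to 6.50 in wild-type, 6.19 to 6.72 in floxed and 6.27 to 6.55 in delta arrays, with overlapping groups.

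**Figure D4:**
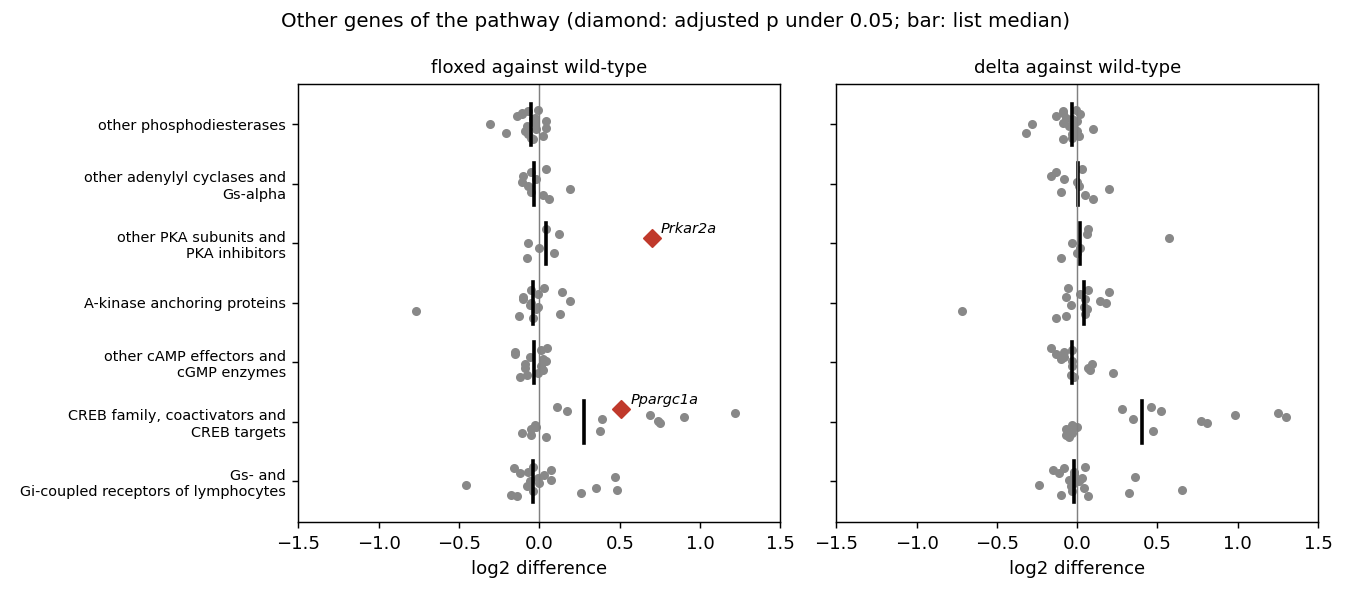
Log2 differences (horizontal axis) of the 100 other measured genes of the pathway, by list, in floxed and delta against wild-type; diamonds mark an adjusted p under the threshold and black bars the list medians. Prkar2a at 0.70 and Ppargc1a at 0.51 are the 2 genes past the threshold, and the list of CREB family genes and targets has medians of 0.27 and 0.41.

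The other genes with a Pde symbol, 19 of 19 measured, had a median floxed difference of -0.05, beside -0.02 over all genes, and none passed. Pde5a, the gene of a cGMP-specific enzyme, gave 6.01, 6.07 and 5.95 in wild-type, 5.70, 5.64 and 5.76 in floxed and 5.66, 5.81, 5.70 and 5.77 in delta arrays, with differences of -0.31 (adjusted p = 0.0621 in limma) and -0.28 (adjusted p = 0.177). Pde6g, of the retinal phosphodiesterase, differed by -0.14 (adjusted p = 0.394) in floxed arrays. In delta against floxed, Pde6h and Pde3a gave 0.13 and 0.12 (adjusted p = 0.847 for each). Of 10 of 11 cyclase and Gs genes, none passed: Adcy3 differed by 0.19 (adjusted p = 0.353) and Adcy8 by -0.10 (adjusted p = 0.551) in floxed arrays, and by 0.20 (adjusted p = 0.516) and -0.16 (adjusted p = 0.539) in delta arrays. Adcy5 and Adcy4 gave 0.11 and 0.08 in delta against floxed (adjusted p = 0.847 and 0.865). Of the genes named here, Pde3a, Pde5a, Pde6h, Adcy5 and Adcy8 were dim, with a mean below 7 in every group. So were most of the other genes with a Pde symbol. Besides Prkar2a, the PKA list of 7 genes had no gene past the threshold: the catalytic subunit relative Prkx gave 0.07 in delta against wild-type (adjusted p = 0.849), and the inhibitor gene Pkib gave -0.09 in delta against floxed (adjusted p = 0.879).

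The A-kinase anchoring proteins tether PKA within the cell, and 15 of 16 of their genes were measured, with a median floxed difference of -0.04 and none past the threshold. Akap12 stood out in size: it gave 8.05, 8.59 and 7.70 in wild-type, 7.38, 7.27 and 7.39 in floxed and 7.48, 7.56, 7.40 and 7.14 in delta arrays. All wild-type arrays lay above all others, but they spread widely, and the differences were -0.77 (SE 0.18, adjusted p = 0.0918 in limma) and -0.72 (adjusted p = 0.196). Akap10 gave -0.13 in floxed arrays (adjusted p = 0.472), Akap8l 0.20 in delta against wild-type (adjusted p = 0.506), and Akap4 and Akap6 0.23 and 0.15 in delta against floxed (adjusted p = 0.719 and 0.777). Of 14 of 15 genes of other cAMP effectors and cGMP enzymes, the median floxed difference was -0.04 and none passed. The cGMP-dependent kinase gene Prkg1 and the cAMP-binding protein gene Popdc3 each gave -0.15 in floxed arrays (adjusted p = 0.356 and 0.442 in limma). In delta against wild-type the soluble guanylyl cyclase gene Gucy1a2 gave 0.22 (adjusted p = 0.715) and Popdc3 -0.13 (adjusted p = 0.738). The nitric oxide synthase gene Nos3 and the guanylyl cyclase gene Gucy1b2 gave 0.18 and 0.16 in delta against floxed (adjusted p = 0.770 and 0.794). Akap4, Akap6, Prkg1, Popdc3, Gucy1a2 and Gucy1b2 were dim, with a mean below 7 in every group.

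The list of CREB family genes, coactivators and targets had all 16 genes measured, and 1 and 0 passed in floxed and delta against wild-type. In floxed arrays 11 were above 0, with a median of 0.27, beside -0.02 over all genes. In delta against wild-type 10 were above 0, with a median of 0.41, beside -0.01 over all genes. Many of its members are also immediate early genes that respond to other signals. Nr4a3, a nuclear receptor gene, gave 6.44, 6.82 and 6.43 in wild-type, 7.88, 8.32 and 7.14 in floxed and 8.21, 7.17, 7.60 and 8.28 in delta arrays. All wild-type arrays lay below all others, and the differences were 1.22 (SE 0.32, adjusted p = 0.119 in limma) and 1.25 (SE 0.29, adjusted p = 0.204). Crem, whose locus makes repressors and activators of cAMP response, gave 0.47 in delta against wild-type (adjusted p = 0.290), and Per1, a clock gene, 0.35 in delta against floxed (adjusted p = 0.847). Of 19 of 26 receptors that act through Gs or Gi, none passed. The histamine receptor gene Hrh4 gave -0.46 in floxed (adjusted p = 0.0809 in limma) and -0.24 in delta arrays (adjusted p = 0.556). Hrh4 was dim, with means of 5.29 in wild-type, 4.84 in floxed and 5.05 in delta arrays. The proton-sensing receptor gene Gpr65 gave 0.35 in floxed arrays (adjusted p = 0.173) and -0.32 in delta against floxed (adjusted p = 0.681). Gpr183, the oxysterol receptor gene that positions B cells, gave 0.65 in delta against wild-type (adjusted p = 0.267).

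Genes whose level followed Pde2a were sought among 452 genes with a mean of at least 7 and a range of at least 1 over the 10 arrays. The highest Pearson r were those of Cecr2 (0.87), Dhrs3 (0.87), Csrp2 (0.84), Cdk6 (0.83) and Rgs18 (0.82). Their group means ran in the same order as those of Pde2a, for example 9.78 in wild-type, 7.67 in floxed and 8.44 in delta arrays for Cecr2. The choice favours this order, because this r includes the group differences, 1 of which chose Pde2a. After subtraction of group means the highest r were those of Crisp3 (0.85), Rtp4 (0.82), Jchain (0.80), Rgs18 (0.78) and Ly6d (0.78). Jchain, the gene of the joining chain of IgM and IgA, thus followed Pde2a within groups while its group means, 6.70 in wild-type, 8.34 in floxed and 7.27 in delta arrays, ran the opposite way. Rgs18, the gene of a regulator of G protein signalling, was on both lists. These are descriptions over 10 arrays that share their normalization, and no p is given.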

How the data were processed

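Total RNA was hybridised to 10 arrays (3 wild-type, 3 floxed and 4 delta). Each deposited value is an intensity that the authors computed by RMA per probe set, per the submitters' processing notes. They are linear, from 4.46 to 26808, so log2 was taken. The RMA software and the genome build were not given in the sources used here. Of 34760 probe sets, 21640 carried 1 gene symbol. The brightest per gene was used, which left 19937 genes.

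Differences were fitted with limma 3.58.1 in R 4.3.3, with 1 mean per group in a single fit of the 10 arrays and the default eBayes, two-sided. Adjusted p-values are Benjamini-Hochberg over 19937 genes, with a threshold of 0.05. SE and 95% CI come from this fit, with 11.3 degrees of freedom, and SD is between arrays. The fit was also run on simulated data with known changes and independent noise for each gene. That simulation held no sex difference and no other cells, so it does not bear on either. The number of arrays limits the precision.

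The genes and pathway lists were chosen with earlier results of these data known. Older symbols of a gene already on a list were dropped by RefSeq's synonyms. The named genes are all 10 chosen genes, up to 4 genes of each list past the threshold per comparison (else the 2 with the smallest unadjusted p, as values), and the 5 genes most like Pde2a on each measure; Nr4a3 and Ppargc1a are also given in other comparisons. An array had a male pattern when the mean of its Y-linked genes lay above Xist. Groups did not overlap when every array of one lay beyond every array of the other. Alternatives were scaling, the filter on dim genes, probe sets, variance prior, array weights, arrays in the fit, sex pattern, T cell marker mean, a replicate block, and leave-one-out fits. Same-numbered arrays correlated between -0.083 and 0.121 after subtraction of group means, so the numbers were not taken to pair the samples.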

Additional observations from a re-analysis of the deposited data

How the results depend on the processing

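The Pde2a difference kept its direction in every alternative run. It ran from -1.13 to -0.83 in floxed against wild-type, -0.54 to -0.32 in delta against wild-type and 0.35 to 0.69 in delta against floxed. These runs refit arrays that chose Pde2a, so the kept direction is no support for its difference. Of 558 recomputed differences of the 9 genes 43 changed sign, and of 809 of the named pathway genes 2 did, all in values that did not pass the threshold. Between floxed and wild-type arrays, Prkar2a passed in 11 of 21 alternatives and Ppargc1a in 12 of 21. The number of arrays, 3 or 4 per group, limits the precision, and the cause of these changes was not tested.

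In floxed against wild-type, 0 of the 8 genes other than Pde2a were called. It was 1, Pde8a, with only the 2 groups compared, and 0 to 1 when leaving out 1 array (1, Pde8a, without delta 4). Of the other pathway genes 2 were called, against 5 with array weights (Hrh4, Nr4a3, Pde5a, Ppargc1a and Prkar2a), 1 with a replicate block, 0 with the sex pattern, 0 with the T cell mean, 0 with floxed 2 alone (added after seeing the data), and 0 to 3 when leaving out 1 array (Akap12, Hrh4 and Ppargc1a without wild-type 3). Over all genes 110 were called, against 168 without dim genes, 208 with array weights, 193 with only 2 groups, 188 with a replicate block, 2 with the sex pattern, 9 with the T cell mean, 6 with floxed 2 alone, and 18 to 240 when leaving out 1 array. In delta against wild-type 15 genes were called, against 0 with every probe set kept, 9 with a trended and robust prior, 0 with only 2 groups, 6 with a replicate block, 3 with the sex pattern, and 0 to 23 when leaving out 1 array. In delta against floxed 1 was called, against 3 with a trended and robust prior, 2 with only 2 groups, 2 with a replicate block, 3 with the T cell mean, and 1 to 10 when leaving out 1 array. With a replicate block, Pde2a was -1.05, -0.36 and 0.69 in the 3 comparisons.

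The sign changes were as follows. In floxed against wild-type, Adcy7 gave -8.2e-05 with quantile normalization again, -0.0041 with array weights, -0.25 with the sex pattern, -0.09 with the T cell mean, -0.11 with floxed 2 alone, and -0.03 to 0.07 when leaving out 1 array. Prkar1a gave 0.07 with the sex pattern, 0.09 with the T cell mean, 0.06 with floxed 2 alone, and -0.07 to 0.04 when leaving out 1 array. With the sex pattern Prkacb gave 0.04 and Pde4b -0.07. Leaving out 1 array gave -0.08 to 0.05 for Prkacb, -0.02 to 0.08 for Pde4b and -0.08 to 0.20 for Pde3b. In delta against wild-type, Prkar1a gave 0.02 with a replicate block and 0.01 with the sex pattern, and leaving out 1 array gave -0.05 to 0.02 for Prkar1a, -0.09 to 0.05 for Prkacb and -0.03 to 0.19 for Pde3b. In delta against floxed, Prkar1a gave -0.06 with the sex pattern, -0.11 with the T cell mean and -0.08 with floxed 2 alone. Quantile normalization again gave 0.01 for Pde3b and 0.00082 for Prkacb. Pde4d gave 0.05 with the sex pattern, Pde8a 0.06 with the T cell mean, and Pde4b -0.02 with floxed 2 alone. Leaving out 1 array gave -0.05 to 0.05 for Prkar1a, -0.13 to 0.17 for Pde3b, -0.03 to 0.02 for Prkacb and -0.21 to 0.04 for Pde4d. Of the pathway genes, Pde3a gave -0.04 with floxed 2 alone and Pkib 0.08 with the sex pattern.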
